A study of Homo sapiens with 6 samples.

Results

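The genes described here are 10 transcription factor genes of the AP-1 and immediate early groups: JUN, JUNB, JUND, FOS, FOSB, FOSL1, FOSL2, EGR1, IER2 and CREB5. They were chosen by gene symbol, with earlier results of these data known. All 10 are measured, by 1 probe set each, among 15669 genes and 16965 probe sets on the array. MDA-MB-231 cells, a human breast cancer line of the triple-negative, mesenchymal kind, were infected with lentivirus carrying a short hairpin RNA and grown in medium with serum and puromycin. The groups were shS100A10_5 and shS100A10_1, which carry different hairpins directed at S100A10, and shNCT, the control, with 2 arrays each. Every group was thus an infected, drug-selected population, and cells without virus are not part of the comparison. S100A10 encodes p11, a calcium-insensitive S100 protein that binds annexin A2 at the cell surface and takes part in plasminogen activation.

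AP-1 is a dimer of basic leucine zipper proteins. A Jun protein pairs with a Fos protein, another Jun protein or a factor of the ATF group, and the dimer binds a short palindromic DNA element. Several of these genes, with the zinc finger factor EGR1 and the nuclear protein IER2, are immediate early genes: growth factors, serum and stress switch them on through MAP kinases before any new protein is made, and their transcripts decay quickly. In mesenchymal breast cancer cells the Fos relative FOSL1, also called Fra-1, is known as an abundant AP-1 subunit. CREB5 is a leucine zipper protein of the ATF2 group, which binds cyclic AMP response elements and can pair with JUN.

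The DNA just before the starts of 4 of these genes is shown because 2 of them, JUN and JUNB, went in opposite directions with the hairpin shS100A10_5, and because EGR1 and FOS lay on opposite sides of the control with the 2 hairpins. Each run is the 250 bases before the start, 5′ to 3′ on the gene's strand, from RefSeq on GRCh38.p14. Capitals mark every match to 5 motifs searched on both strands: an AP-1 site (TGANTCA), a CRE-like site (TGACNTCA), the CArG box bound by serum response factor, an EGR site (GCGNGGGCG) and a TATA box (TATAAA).
JUN, chr1:58784048-58784297, minus strand: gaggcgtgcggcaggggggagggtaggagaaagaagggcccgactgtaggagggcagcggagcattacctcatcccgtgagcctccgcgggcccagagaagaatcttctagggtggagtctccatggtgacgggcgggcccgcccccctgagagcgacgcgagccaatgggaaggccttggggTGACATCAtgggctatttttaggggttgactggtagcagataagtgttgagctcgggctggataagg
JUNB, chr19:12791236-12791485, plus strand: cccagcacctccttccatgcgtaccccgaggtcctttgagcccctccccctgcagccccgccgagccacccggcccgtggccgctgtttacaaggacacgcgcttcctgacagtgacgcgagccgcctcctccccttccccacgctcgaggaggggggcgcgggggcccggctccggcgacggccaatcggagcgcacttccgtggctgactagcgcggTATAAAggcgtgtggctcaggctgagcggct
EGR1, chr5:138465229-138465478, plus strand: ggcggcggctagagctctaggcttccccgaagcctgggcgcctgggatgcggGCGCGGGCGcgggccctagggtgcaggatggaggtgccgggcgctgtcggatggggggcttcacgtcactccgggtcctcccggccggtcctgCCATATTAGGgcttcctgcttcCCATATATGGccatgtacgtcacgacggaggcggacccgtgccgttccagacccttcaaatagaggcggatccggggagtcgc
FOS, chr14:75278578-75278827, plus strand: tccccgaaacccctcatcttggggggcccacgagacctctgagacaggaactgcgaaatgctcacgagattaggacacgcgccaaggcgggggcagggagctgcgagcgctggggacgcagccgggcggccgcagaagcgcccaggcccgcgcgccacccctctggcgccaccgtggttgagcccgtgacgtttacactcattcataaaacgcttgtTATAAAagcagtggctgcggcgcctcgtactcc

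The JUN window holds 1 CRE-like match, TGACATCA, whose first base lies 67 bases before the start. JUND (TGACGTCA, 200 bases before the start) and the third CREB5 start (TGACTTCA, 210 bases) also hold one. Such a match was present in 6.87% of the 35116 windows of this length in the table. Among the 9 genes with a window, only EGR1 had an exact CArG box match within it. EGR1 has 2 of them, beginning 105 and 83 bases before the start, against 1.16% of all windows with at least 1. It also has an EGR site 198 bases upstream, a motif found in 8.41% of windows. Sequence further upstream was not searched, nor was FOSL1, which had no window. JUNB, FOS, FOSB and the first CREB5 start each have a TATA box beginning between 30 and 33 bases before the start, and 10.7% of all windows hold one anywhere. Windows were listed for 9 of the 10 genes, 11 windows in all, since CREB5 has 3 annotated starts. The AP-1 motif itself was found in 1 of these 11, the third CREB5 start, against 6.57% of all windows. These matches describe letters in a window and do not show binding.

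**Figure D1:**
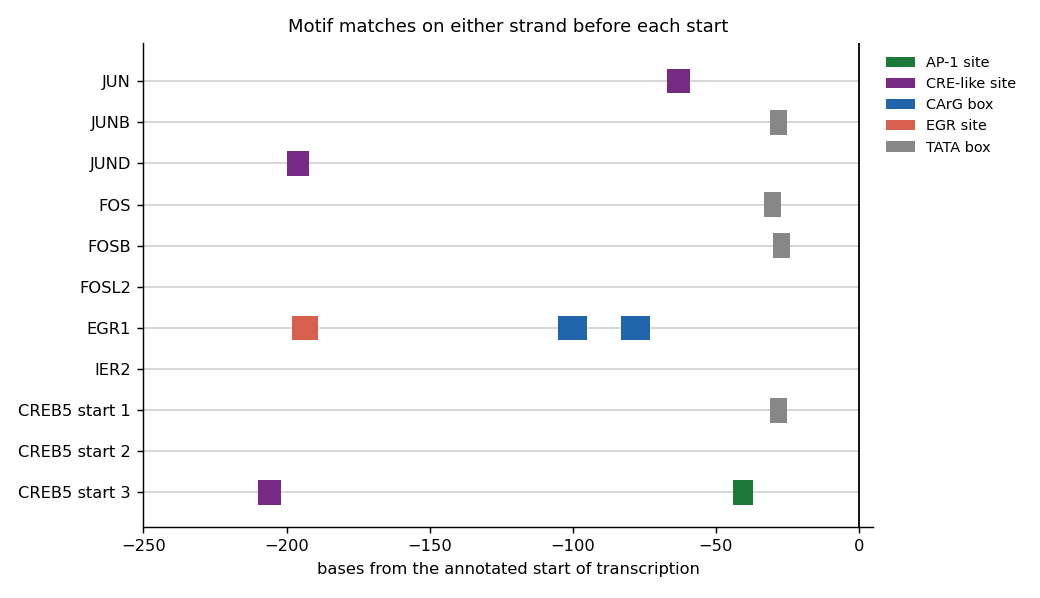
Motif matches in the 250 bases before each annotated start of 9 of the genes, with distance from the start in bases on the horizontal axis and 1 row per start. Coloured blocks are matches on either strand. EGR1 is the row with 2 CArG boxes, and JUNB, FOS, FOSB and the first CREB5 start have a TATA box close to the start.

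The knockdown was read first. S100A10 had log2 intensities of 13.73 and 13.21 with shS100A10_5, 10.94 and 10.59 with shS100A10_1, and 16.44 and 16.50 with shNCT, so 12.5% of the control signal was left with shS100A10_5 and 1.92% with shS100A10_1 (limma, adjusted p = 0.000442 and 1.71e-06). Median intensity was 232 to 238 on the 6 arrays. All 6 markers of mesenchymal MDA-MB-231 cells (VIM, CD44, AXL, MSN, CAV1 and EGFR) lay above the upper quartile of probe set means. Of the epithelial markers, listed as low in these cells, CDH1 lay below the lower quartile, at the 4.2nd percentile. EPCAM did not follow that listing and lay above the median, at the 71.3rd percentile. The summed intensity of EPCAM and CDH1 was 1380 and 1740 with shS100A10_5, 1520 and 1400 with shS100A10_1, and 948 and 952 with shNCT. This sum is nearly all EPCAM, whose log2 changes were 0.72 with shS100A10_5 and 0.63 with shS100A10_1 (limma, adjusted p = 0.0624 and 0.326), while those of CDH1 were -0.10 and -0.46 (adjusted p = 0.841 and 0.626). The leukocyte markers PTPRC, CD3E, CD14 and ITGAM all lay below the median, with summed intensities of 221 and 158 with shS100A10_5, 163 and 177 with shS100A10_1, and 192 and 188 with shNCT. Of 4 fibroblast markers 3 (DCN, LUM and PDGFRB) lay below the median, and COL1A2 lay above it. All 4 had positive log2 changes with shS100A10_5, at 0.97 for LUM, 0.55 for PDGFRB, 0.47 for DCN and 0.15 for COL1A2. An unadjusted limma p under 0.05 was found for 2 of them, a level whose share over all probe sets was not counted. None of the 4 markers had an adjusted limma p under 0.05 (0.0738 for LUM). Their median change was 0.51 with shS100A10_5 and 0.01 with shS100A10_1. Their summed intensity, mostly COL1A2, was 855 and 1090 with shS100A10_5, 761 and 935 with shS100A10_1, and 838 and 811 with shNCT, and the part of these marker levels in the results below was not tested. The arrays measure bulk RNA, so fewer cells making a transcript and less transcript per cell cannot be told apart. The labels do not tell whether replicate arrays were grown apart, and the p-values below measure only the spread between these arrays. The 2 arrays of shS100A10_5 differed from each other more (SD of the log2 difference 0.360) than those of shS100A10_1 (0.292) or shNCT (0.287).

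With shS100A10_5, 5 of the 10 genes passed limma's threshold of an adjusted p under 0.05 against shNCT, where 3.18% of all probe sets did. The genes were chosen with earlier results of these data known, so the 2 shares are not an independent comparison. CREB5, JUNB, EGR1 and FOSB rose (4 genes, background 1.43%) and JUN fell (1 gene, background 1.75%). With shS100A10_1 none of the 10 passed, against a background of 0.189%. At an unadjusted p under 0.05 by limma, JUNB was higher with that hairpin and EGR1 and CREB5 were lower (adjusted p = 0.448, 0.357 and 0.416). The share of all probe sets at that unadjusted level was not counted. The median log2 change of the 10 genes was 0.39 with shS100A10_5 and -0.19 with shS100A10_1, beside medians of 0.03 and 0.01 over all probe sets. For the fibroblast markers these medians were 0.51 and 0.01, with none past the threshold. For 7 of the genes the arrays of shS100A10_5 did not overlap those of shNCT, and for 8 of them the arrays of shS100A10_1 did not, but this was so for 50.5% and 42.4% of all probe sets.

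**Figure D2:**
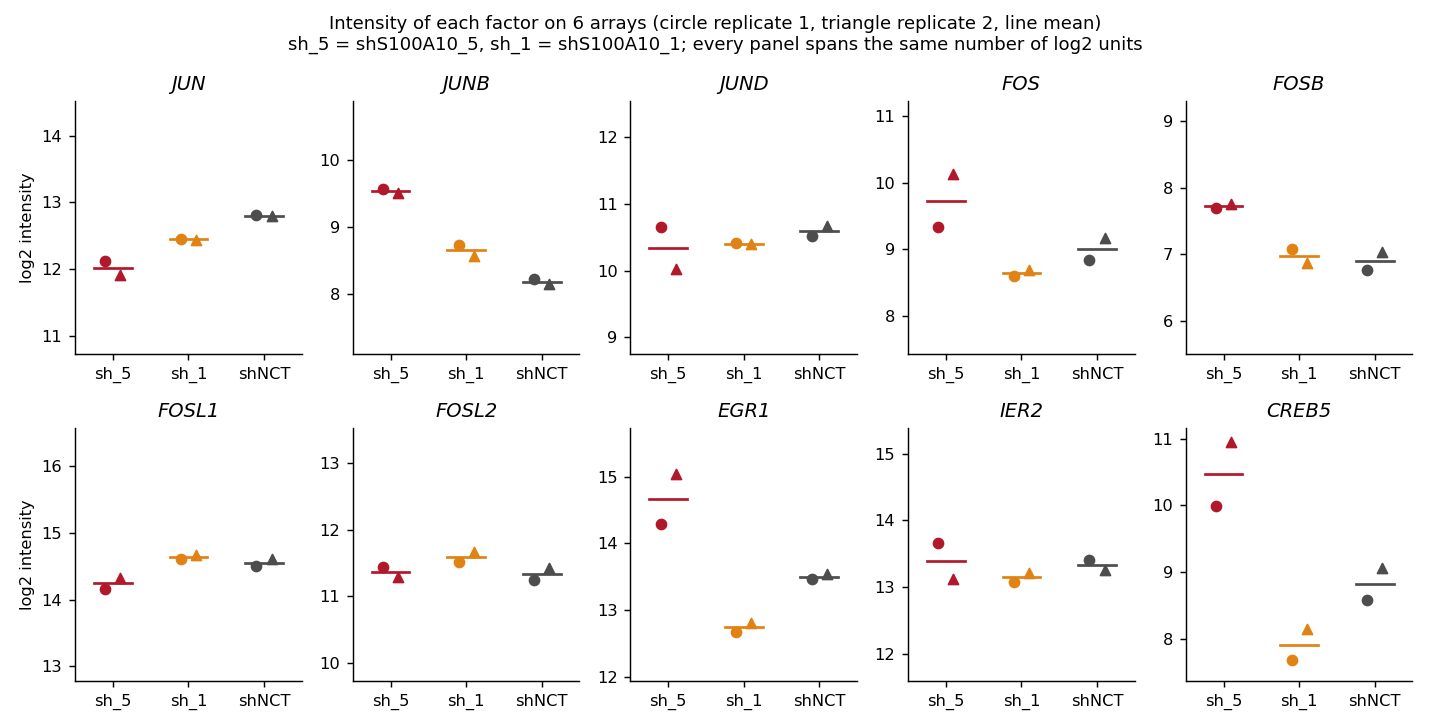
Log2 intensity of each of the 10 genes on every array, by group, with a circle for replicate 1, a triangle for replicate 2 and a line for the group mean of 2 arrays. JUN and JUNB step in opposite directions from shS100A10_5 through shS100A10_1 to shNCT, while FOS, EGR1 and CREB5 are highest with shS100A10_5 and lowest with shS100A10_1.

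Among the Jun genes, JUNB and JUN moved in opposite directions. JUNB encodes a Jun protein that in many settings activates transcription less strongly than c-Jun. Its log2 intensity was 9.58 and 9.50 with shS100A10_5, 8.73 and 8.57 with shS100A10_1, and 8.21 and 8.15 with shNCT. The 3 groups did not overlap, and each pair of arrays lay close together. JUNB rose by 1.36 on the log2 scale with shS100A10_5 (SE 0.17, 2.57-fold; limma, adjusted p = 0.00818), and its change with shS100A10_1 was 0.47 (SE 0.17, adjusted p = 0.448). The change with shS100A10_5 was 1.39 without shNCT replicate 1, 1.33 without shNCT replicate 2 and 1.40 without shS100A10_5 replicate 2, with limma adjusted p of 0.0526, 0.085 and 0.0993.

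JUN encodes c-Jun, the subunit that gave the family its name and that can activate its own promoter. Its log2 intensity was 12.13 and 11.91 with shS100A10_5, 12.45 and 12.44 with shS100A10_1, and 12.81 and 12.79 with shNCT. The order of the groups was the reverse of that of JUNB, again with no overlap. JUN fell by 0.79 with shS100A10_5 (log2 change -0.79, SE 0.17, 1.72-fold lower; limma, adjusted p = 0.0408), and the change with shS100A10_1 was -0.35 (SE 0.17, adjusted p = 0.623). The fall lay close to the threshold. With shNCT replicate 1 left out the change was -0.77 (limma, adjusted p = 0.166), with shNCT replicate 2 left out -0.80 (0.214) and with shS100A10_5 replicate 2 left out -0.68 (0.182). The adjusted p was also 0.0538 without either array of shS100A10_1, 0.0648 with array weights and 0.0521 after a correction of each array for gene span.

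JUND, a Jun protein expressed steadily in resting cells, had log2 intensities of 10.66 and 10.02 with shS100A10_5, 10.41 and 10.40 with shS100A10_1, and 10.51 and 10.67 with shNCT. The first array of shS100A10_5 was near the top of the range and the second was the lowest of all, so this group overlapped both others, while both arrays of shS100A10_1 lay below those of shNCT. The change was -0.25 with shS100A10_5 (95% interval -0.74 to 0.24) and -0.19 with shS100A10_1 (-0.67 to 0.30), by limma with adjusted p = 0.562 and 0.893.

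The Fos genes did not move alike. FOSB, an inducible Fos protein, had log2 intensities of 7.69 and 7.76 with shS100A10_5, 7.08 and 6.87 with shS100A10_1, and 6.77 and 7.04 with shNCT. Both arrays of shS100A10_5 lay above all the others, which overlapped among themselves. The FOSB mean over all arrays, 7.2, ranked at the 44.9th percentile, below the median of probe set means (7.88). Without detection calls its distance from background could not be tested. FOSB rose by 0.82 with shS100A10_5 (SE 0.18, 1.77-fold; limma, adjusted p = 0.0419) and had a change of 0.07 with shS100A10_1 (SE 0.18, adjusted p = 0.961). The limma adjusted p of the rise was 0.205 and 0.157 with shNCT replicate 1 or 2 left out, 0.059 without shS100A10_5 replicate 1 and 0.189 without its replicate 2, with changes between 0.69 and 0.96, and it was 0.072 with array weights.

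FOS, which encodes c-Fos, the best-known immediate early product, had log2 intensities of 9.33 and 10.13 with shS100A10_5, 8.60 and 8.69 with shS100A10_1, and 8.84 and 9.17 with shNCT. Its groups did not overlap, with shS100A10_5 on top and shS100A10_1 at the bottom, but the 2 arrays of shS100A10_5 stood 0.80 apart. The change was 0.72 with shS100A10_5 (SE 0.25, 95% interval 0.16 to 1.29; limma, adjusted p = 0.137) and -0.36 with shS100A10_1 (SE 0.25, adjusted p = 0.776). Without shS100A10_5 replicate 1 the change was 1.12 (limma, adjusted p = 0.038) and without its replicate 2 it was 0.32 (adjusted p = 0.496).

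The Fos relatives FOSL1 and FOSL2 did not pass the test with either hairpin. FOSL1 intensities on the log2 scale were 14.16 and 14.33 with shS100A10_5, 14.61 and 14.67 with shS100A10_1, and 14.50 and 14.61 with shNCT. The arrays of shS100A10_5 were the 2 lowest, and the other groups overlapped. Its change was -0.31 with shS100A10_5 (95% interval -0.69 to 0.07) and 0.09 with shS100A10_1 (-0.29 to 0.46), by limma with adjusted p = 0.33 and 0.943. The FOSL1 mean over all arrays ranked at the 97.5th percentile of probe set means, a rank that also depends on how its probes respond. FOSL2, which encodes Fra-2, had log2 intensities of 11.44 and 11.28 with shS100A10_5, 11.52 and 11.67 with shS100A10_1, and 11.25 and 11.42 with shNCT. The arrays of shS100A10_1 were the 2 highest, and the other groups overlapped. Its changes were 0.02 with shS100A10_5 (-0.36 to 0.41) and 0.26 with shS100A10_1 (-0.13 to 0.65), with limma adjusted p of 0.957 and 0.76.

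EGR1, a zinc finger factor that serum and growth factors induce through serum response factor, had log2 intensities of 14.30 and 15.04 with shS100A10_5, 12.67 and 12.81 with shS100A10_1, and 13.46 and 13.54 with shNCT. The hairpins lay on opposite sides of the control, with no overlap between any groups. EGR1 rose by 1.17 with shS100A10_5 (SE 0.23, 2.25-fold; limma, adjusted p = 0.0336). Its change with shS100A10_1 was -0.76 (SE 0.23, 95% interval -1.29 to -0.24), which did not pass over all probe sets (limma, adjusted p = 0.357). The rise was 0.80 without shS100A10_5 replicate 2, 1.12 without shNCT replicate 1 and 1.21 when shNCT replicate 2 was left out, with limma adjusted p of 0.162, 0.147 and 0.167. Without shS100A10_5 replicate 1 it was 1.54 (adjusted p = 0.0299).

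IER2, an immediate early nuclear protein without a leucine zipper, had log2 intensities of 13.66 and 13.12 with shS100A10_5, 13.08 and 13.21 with shS100A10_1, and 13.41 and 13.25 with shNCT. The arrays of shS100A10_5 lay on different sides of the control. Its changes were 0.06 with shS100A10_5 (95% interval -0.40 to 0.52) and -0.19 with shS100A10_1 (-0.65 to 0.28), by limma with adjusted p = 0.905 and 0.888.

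CREB5 had the largest change of the 10 genes with either hairpin. Its log2 intensity was 9.99 and 10.95 with shS100A10_5, 7.68 and 8.14 with shS100A10_1, and 8.58 and 9.06 with shNCT. As with EGR1, the hairpins lay on opposite sides of the control without overlap, and replicate 2 was the higher array in all groups. CREB5 rose by 1.65 with shS100A10_5 (SE 0.31, 3.14-fold; limma, adjusted p = 0.0271), and its change with shS100A10_1 was -0.91 (SE 0.31, 95% interval -1.59 to -0.23; adjusted p = 0.416). The rise was 1.17 without shS100A10_5 replicate 2, 1.41 without shNCT replicate 1 and 1.89 when shNCT replicate 2 was left out, with limma adjusted p of 0.176, 0.133 and 0.0869. Without shS100A10_5 replicate 1 it was 2.13 (adjusted p = 0.0306). CREB5 spans 526574 bases, while the other 9 genes span between 1830 and 24460.

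**Figure D3:**
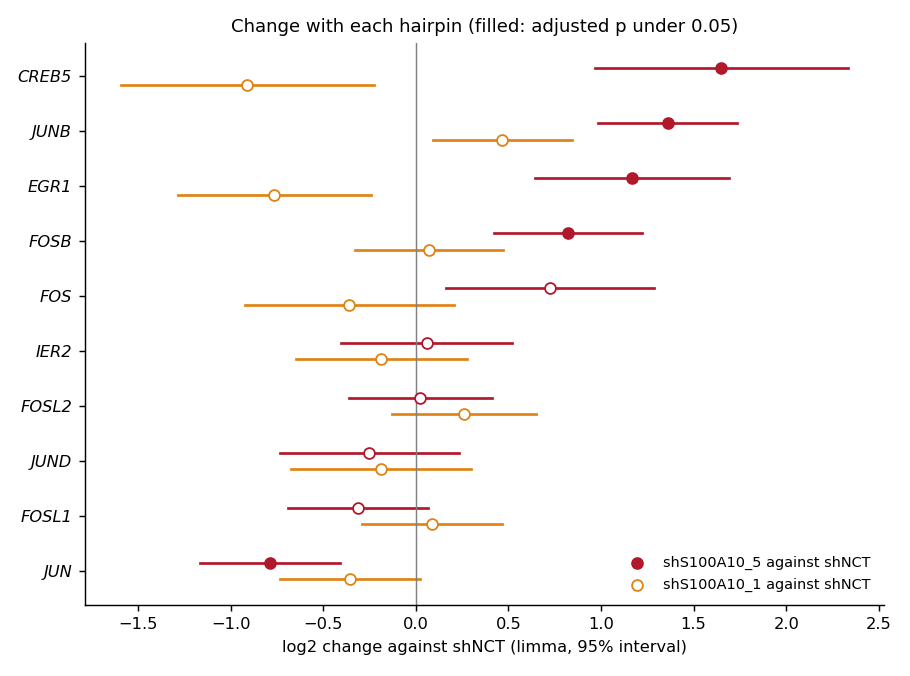
Log2 change of each gene against shNCT on the horizontal axis, for shS100A10_5 (upper point of each pair) and shS100A10_1 (lower point), with limma's 95% interval and filled points where the adjusted p is under 0.05. CREB5 is at 1.65 and -0.91 and EGR1 at 1.17 and -0.76, while JUN is at -0.79 and -0.35.

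The 2 arrays of shS100A10_5 gave unlike values for some of the genes. For EGR1, FOS and CREB5, replicate 2 of shS100A10_5 was higher than replicate 1 by 0.74, 0.80 and 0.96 on the log2 scale. JUND and IER2 were lower on it by 0.64 and 0.54 (differences of -0.64 and -0.54). JUNB and FOSB differed by -0.07 and 0.06 between the same arrays. All 5 calls with shS100A10_5 were lost when that array or either shNCT array was left out, in fits that called 3, 22 and 12 probe sets of the whole array, and the changes of the 5 genes kept their sign in each.

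**Figure D4:**
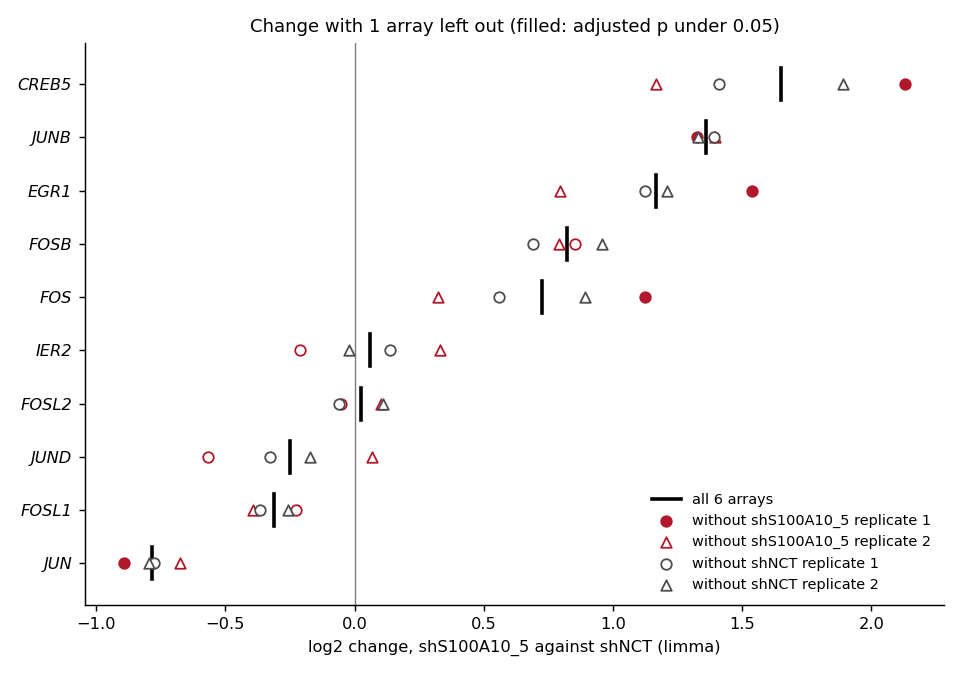
Log2 change with shS100A10_5 against shNCT for each gene, from all 6 arrays (black bar) and with 1 array of either group left out (symbols, filled where the limma adjusted p is under 0.05). JUNB stays between 1.32 and 1.40, while CREB5 runs from 1.17 to 2.13 and FOS from 0.32 to 1.12.

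Both comparisons above use the same 2 control arrays. The signs of the 2 changes were opposite for 5 of the 10 genes. FOS, EGR1, IER2 and CREB5 were positive with shS100A10_5 and negative with shS100A10_1, and FOSL1 was the reverse. How many of all probe sets had opposite signs was not counted, so this count of genes has no background beside it. For FOS, EGR1 and CREB5 the arrays of the hairpins lay clear of the control on opposite sides, a pattern seen in 5.88% of all probe sets. The hairpins were then compared directly, with the spread estimated from all 6 arrays. In that comparison 3 of the 10 genes were higher with shS100A10_5 than with shS100A10_1 and none was lower. Of all probe sets 2.91% differed and 1.43% were higher, and the limit from the choice of the genes holds here too. A fit of the hairpin arrays alone called 3 of the 10 genes and 291 probe sets.

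CREB5 was higher with shS100A10_5 by 2.56 on the log2 scale (SE 0.31, 5.89-fold; limma, adjusted p = 0.0052), EGR1 by 1.93 (SE 0.23, 3.81-fold; adjusted p = 0.00528) and JUNB by 0.89 (SE 0.17, 1.86-fold; adjusted p = 0.0244). FOS (difference 1.08, SE 0.25) and FOSB (0.75, SE 0.18) just missed the threshold, with limma adjusted p of 0.0518 and 0.0558. Both passed once dim probe sets were filtered out (0.0338 and 0.0347). Over the alternatives other than leaving out 1 array, the limma adjusted p ran from 0.0136 to 0.0686 for FOS and from 0.0347 to 0.0947 for FOSB. With 1 array left out, the differences ran from 0.68 to 1.48 for FOS and from 0.64 to 0.86 for FOSB. The JUN difference was -0.43 (SE 0.17, adjusted p = 0.197). For 8 of the 10 genes the arrays of the hairpins did not overlap, against 49.0% of all probe sets. Without shS100A10_5 replicate 2 none of the 3 differences passed, at 2.08 for CREB5, 1.56 for EGR1 and 0.93 for JUNB (limma, adjusted p = 0.0794, 0.0738 and 0.111). The JUNB difference also missed it without shS100A10_1 replicate 1 (0.97, adjusted p = 0.0984), shS100A10_1 replicate 2 (0.81, adjusted p = 0.125) or shS100A10_5 replicate 1 (0.86, adjusted p = 0.0515).

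Other genes of the same pathway were read from 4 lists, which were also chosen with earlier results of these data known. Of all probe sets 3.18% passed with shS100A10_5 and 0.189% with shS100A10_1. Among 11 measured leucine zipper partners, 1 passed with shS100A10_5 and none with shS100A10_1. It was ATF3, a stress-induced factor that pairs with Jun proteins, with log2 intensities of 8.59 and 8.29 with shS100A10_5, 6.76 and 6.58 with shS100A10_1, and 7.12 and 6.92 with shNCT. ATF3 rose by 1.42 with shS100A10_5 (SE 0.19; limma, adjusted p = 0.00865) and had a change of -0.35 with shS100A10_1 (adjusted p = 0.67). The rise missed the threshold without shNCT replicate 1 (adjusted p = 0.0508), shNCT replicate 2 (0.0862) or shS100A10_5 replicate 2 (0.0993), with changes between 1.32 and 1.57. JDP2, a repressor of AP-1, had changes of 0.05 with shS100A10_5 and -0.49 with shS100A10_1 (limma, adjusted p = 0.909 and 0.448). The median of the list was 0.07 with shS100A10_5 and -0.12 with shS100A10_1.

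Of 28 other immediate early genes measured, 2 rose with shS100A10_5 and none passed with shS100A10_1, with list medians of 0.07 for both hairpins. Of all probe sets 1.43% were called higher with shS100A10_5 and 0.189% were called with shS100A10_1. KLF10, a zinc finger factor induced early by TGF-beta, rose by 1.09 with shS100A10_5 (SE 0.18; limma, adjusted p = 0.0152) and had a change of -0.10 with shS100A10_1 (adjusted p = 0.937). RHOB, an inducible small GTPase, rose by 1.24 (SE 0.19; limma, adjusted p = 0.0117), with a change of 0.03 with shS100A10_1 (adjusted p = 0.987). Neither passed without shNCT replicate 1, shNCT replicate 2 or shS100A10_5 replicate 2, where the limma adjusted p lay between 0.0734 and 0.13 and the changes between 0.94 and 1.30.

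Among 25 upstream kinases and factors, none passed with shS100A10_5, where 3.18% of all probe sets did. With shS100A10_1, where 0.189% of all probe sets passed, 1 of the 25 fell. This was RPS6KA5, which encodes the kinase MSK1 that acts on chromatin at immediate early genes. Its log2 intensity was 8.51 and 8.50 with shS100A10_5, 7.77 and 7.59 with shS100A10_1, and 8.76 and 8.76 with shNCT. The log2 change was -1.08 with shS100A10_1 (SE 0.17; limma, adjusted p = 0.039) and -0.25 with shS100A10_5 (adjusted p = 0.429). That fall missed the threshold whichever of the 6 arrays was left out (adjusted p between 0.0964 and 0.331, changes between -1.17 and -0.99), and with quantile normalization it had an adjusted p of 0.0528. NAB1, a corepressor of EGR1, had changes of -0.43 with shS100A10_5 and 0.30 with shS100A10_1 (limma, adjusted p = 0.201 and 0.717).

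Of 22 measured genes known as AP-1 targets, 1 rose with shS100A10_5 (1.43% of all probe sets) and none passed with shS100A10_1 (0.189%). Between the hairpins, 2 were lower with shS100A10_5 than with shS100A10_1 and none was higher. In that comparison 2.91% of all probe sets differed in either direction and 1.43% were higher. The gene that rose was EREG, which encodes the EGF receptor ligand epiregulin. Its log2 intensity was 8.80 and 8.93 with shS100A10_5, 8.85 and 9.24 with shS100A10_1, and 8.04 and 7.82 with shNCT. The changes were 0.94 with shS100A10_5 (SE 0.19; limma, adjusted p = 0.0354) and 1.12 with shS100A10_1 (SE 0.19, adjusted p = 0.0668). The rise with shS100A10_5 missed the threshold without any 1 of the arrays of shS100A10_5 or shNCT (limma, adjusted p between 0.0525 and 0.227, changes between 0.83 and 1.05) and with array weights (0.0657).

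The other target genes named here, MMP1 and PLAU, were named because they passed the test between the hairpins. Over the 22 measured targets, that difference was positive for 11 and negative for 11. MMP1, the interstitial collagenase whose promoter is a textbook AP-1 target, had log2 intensities of 12.52 and 12.72 with shS100A10_5, 13.56 and 13.72 with shS100A10_1, and 12.55 and 12.67 with shNCT. PLAU, the urokinase plasminogen activator, had 13.16 and 13.03 with shS100A10_5, 14.26 and 14.17 with shS100A10_1, and 13.61 and 13.64 with shNCT. Both were highest with shS100A10_1. Against shNCT, MMP1 changed by 0.01 with shS100A10_5 and 1.03 with shS100A10_1 (limma, adjusted p = 0.978 and 0.0647). For MMP1 with shS100A10_1 the adjusted p ran from 0.00165 to 0.105 over the alternatives other than leaving out 1 array. The PLAU changes were -0.53 and 0.59 (limma, adjusted p = 0.106 and 0.318). With shS100A10_5 the MMP1 signal was below that with shS100A10_1 (difference -1.02, SE 0.17; limma, adjusted p = 0.0179), and so was that of PLAU (-1.12, SE 0.17; adjusted p = 0.0113). Neither difference passed without shS100A10_5 replicate 2 (-1.12 for MMP1 and -1.06 for PLAU, adjusted p = 0.0948 and 0.094) or without shS100A10_1 replicate 1 (-1.10 and -1.08, adjusted p = 0.0744 and 0.0751), and that of MMP1 did not pass without shS100A10_1 replicate 2 (-0.93, adjusted p = 0.0972).

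**Figure D5:**
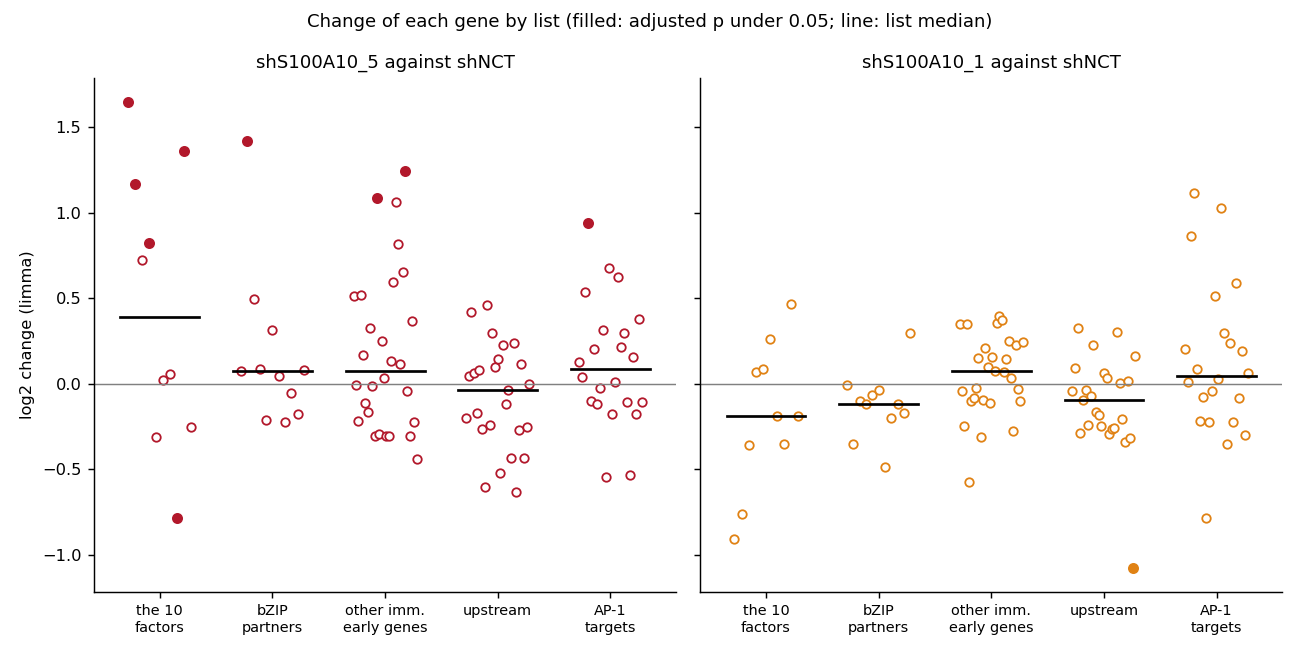
Log2 change of each measured gene against shNCT, by list, with shS100A10_5 on the left and shS100A10_1 on the right. Filled points have a limma adjusted p under 0.05 and black lines are list medians, which are 0.39 and -0.19 for the 10 factors and lie between -0.12 and 0.08 for the other lists.

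The genes with the most similar profiles were found by the root mean square difference of log2 values over the 6 arrays, each gene centred on its own mean. For CREB5 the closest named gene was EGR1, at 0.31 log2 units, followed by SNAI1 at 0.33, a zinc finger repressor of E-cadherin, and CYP1A1 at 0.43, a cytochrome P450 induced through the aryl hydrocarbon receptor. For EGR1 the closest were GXYLT1 (0.22), LIN7C (0.26) and the actin-severing protein gene SCIN (0.26). JUNB was closest to CARD16 (0.12), CALB2 (0.13), which encodes calretinin, and CSF1 (0.14), which encodes macrophage colony-stimulating factor. JUN was closest to MSRB2 (0.03), the replication helicase gene MCM2 (0.04) and the kinase gene AKT1 (0.04). Among the 10 factors themselves, the nearest to JUNB was FOSB at 0.25 and the nearest to JUN was FOSL1 at 0.25, while JUN and JUNB stood 0.89 apart.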

How the data were processed

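Total RNA of MDA-MB-231 cells was labelled for whole-transcript arrays, per the labels' protocols. The deposited table holds a linear intensity for each probe set on each array, which the authors made with Transcriptome Analysis Console, per the submitters' processing notes. How this tool was set, including its normalization and genome build, was not given in the sources used here. Without detection calls or scan dates, neither background nor batch could be tested. Samples were grouped by title. Intensities were converted to log2, and group means over the 6 arrays were tested two-sided by limma 3.58.1 (R 4.3.3; lmFit, then eBayes with 3 residual and 7.16 prior degrees of freedom), with Benjamini-Hochberg adjustment over all 16965 probe sets and a threshold of 0.05. The fit was tested on simulated data.

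Symbols came from the platform annotation (15674 probe sets with 1 symbol, 1291 with none) and were matched by gene identifier to RefSeq on GRCh38.p14. The brightest probe set stood for a gene. The members and gene lists were chosen with earlier results of these data known. From each list the genes past the threshold in any comparison were named, or the 2 with the smallest p where fewer than 2 passed. Of the lists, 5 of 16 zipper partners, 3 of 31 immediate early genes, 5 of 30 upstream genes and 4 of 26 targets were not analysed here, nor were the markers ESR1, PGR and ERBB2. Alternatives changed the normalization, filter, variance prior, array weights, block, arrays, threshold and gene span.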

Additional observations from a re-analysis of the deposited data

Results flagged for a closer look

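These genes are listed because the changes with the 2 hairpins differed from each other by limma's test of the difference (shS100A10_5 minus shS100A10_1, log2, adjusted over all probe sets). Among the 10 factors the differences were 2.56 for CREB5, 1.93 for EGR1 and 0.89 for JUNB. Among the other named genes they were 1.77 for ATF3 (adjusted p = 0.00332), 1.18 for KLF10 (0.0117), 1.21 for RHOB (0.0135), 0.83 for RPS6KA5 (0.0324), -1.12 for PLAU and -1.02 for MMP1, and 2.70 for S100A10 itself (0.00102), which was knocked down less far with shS100A10_5. Without shS100A10_5 replicate 2 the differences of ATF3 (1.92, adjusted p = 0.0584), KLF10 (1.04, 0.105), RHOB (1.08, 0.11) and RPS6KA5 (0.83, 0.125) did not pass. Without shS100A10_1 replicate 1 those of KLF10 (1.11, 0.0759), RHOB (1.06, 0.0872) and RPS6KA5 (0.91, 0.115) did not, and RPS6KA5 missed the threshold without each of the 4 other arrays too (adjusted p between 0.055 and 0.16). Groups of 2 arrays are too small for a search for single outlying arrays.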

How the results depend on the processing

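The count of the 10 factors called with shS100A10_5 was 5 in the fit as reported, 3 when a change of at least 2-fold was also asked for, 3 with array weights and between 0 and 5 with 1 array left out. For shS100A10_5 against shS100A10_1 it was 3 as reported, 5 at an adjusted p under 0.1, 5 with dim probe sets filtered out, 5 when the variance prior followed intensity, and between 0 and 3 with 1 array left out. For shS100A10_1 against shNCT it was 0 under every alternative run. With the replicate block the counts were 5, 4 and 0. The labels do not say whether the replicate numbers pair the samples. The correlation of replicate differences across probe sets was -0.035 between shS100A10_5 and shNCT, -0.022 between shS100A10_1 and shNCT, and 0.188 between the hairpins. These values over all probe sets do not settle whether single genes share a replicate effect. FOS, FOSL1, EGR1 and CREB5 were higher on replicate 2 in every group, JUN and JUNB were lower, and the other factors varied. Over all probe sets shS100A10_5 called 539 against shNCT, 1344 at an adjusted p under 0.1, 263 with a 2-fold minimum, 952 after the filter, 1454 with the intensity trend and 242 with array weights. A change of sign was seen only for small changes that had not passed. With quantile normalization the changes with shS100A10_5 were -0.0034 for FOSL2 and -0.0018 for MMP1, and with the gene span trend removed the JUND difference between hairpins was 0.00397. With 1 array left out, the changes with shS100A10_5 ran from -0.568 to 0.0679 for JUND, -0.0609 to 0.110 for FOSL2, -0.211 to 0.330 for IER2, -0.0447 to 0.140 for JDP2 and -0.0862 to 0.112 for MMP1. With shS100A10_1 they ran from -0.0623 to 0.206 for FOSB and -0.123 to 0.188 for RHOB, and between the hairpins from -0.382 to 0.254 for JUND, -0.0259 to 0.516 for IER2 and -0.380 to 0.0185 for EREG. Of 1080 values of single genes under the alternatives, 962 kept their direction and side of the threshold. These include changes that had not passed as reported and fits without an array of the group not compared. The count therefore does not measure how stable the calls are. The mean over several probe sets of a gene was not run, since each factor has 1. With 2 arrays a group the number of arrays limits the precision.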
